A study of Mus musculus with 23 samples.

Results

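Potassium channel genes were followed in brown adipose tissue (BAT) as the rows of the deposited expression table whose symbol begins with Kcn, then holds lower-case letters and a number. The rule found 33 of the 14651 genes in the table. Of these, 32 encode channel subunits: 16 voltage-gated pore-forming subunits, 3 subunits of calcium- or sodium-activated channels, 4 inward rectifiers, 5 two-pore-domain subunits and 4 auxiliary subunits. The remaining member, Kcnq1ot1, is a long noncoding RNA transcribed antisense within Kcnq1. RNA sequencing was done on BAT of 23 male C57BL/6 mice aged 8 to 12 weeks. Control mice (Ctrl) carried floxed alleles of Mcu, which encodes the pore of the mitochondrial calcium uniporter, and no Cre. BAT-Mcu-KO mice, the knockouts, carried the same floxed alleles and a Cre transgene driven by the Ucp1 promoter, which deletes exon 2 of Mcu in cells that express Ucp1 and not in the other cells of the tissue. Mice were kept at room temperature (RT; 6 Ctrl and 6 BAT-Mcu-KO) or at 4°C for 6 h (5 Ctrl and 6 BAT-Mcu-KO). Mice at 4°C were housed singly without bedding and, unless otherwise stated in the methods, without food, so cold and food withdrawal cannot be told apart.

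Potassium channels let potassium leave or enter the cell down its electrochemical gradient and so set the membrane potential. Voltage-gated and calcium-activated members open on depolarization or a calcium rise, inward rectifiers and two-pore-domain leak channels hold the resting potential, and auxiliary subunits change the gating or traffic of the pores they join. In brown adipocytes, sympathetic noradrenaline raises cyclic AMP and depolarizes the cell, and the two-pore-domain gene Kcnk3 is known as a gene enriched in brown over white fat.

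Values are normalized read counts: uniquely assigned exonic reads scaled by the size factor of each library. Libraries held 7129271 to 21006347 assigned reads, and 1 read was worth 0.657 to 2.02 normalized counts, so values near 1 rest on 1 or 2 reads. Of the members, 9 had a mean of 50 or more over all mice, 3 a mean between 20 and 50, and 21 a mean under 20. Mcu itself fell in BAT-Mcu-KO mice, from 109.5 to 35.1 at RT (log2 fold change -1.66 ± 0.22 SE, limma adjusted p = 0.00100) and from 107 to 33.9 at 4°C (-1.61 ± 0.23, limma adjusted p = 0.00367). Ucp1, the thermogenic uncoupling protein of brown adipocytes, rose in the cold by 1.37 in Ctrl and by 1.47 in BAT-Mcu-KO mice on the log2 scale. All 8 brown adipocyte markers examined were in the table, and their summed level was at least 177540 in every mouse.

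The promoter windows of the members that responded to cold in both genotypes are shown first, since motifs for cyclic AMP signalling were looked for in them. RefSeq windows on GRCm38.p6, running from 250 bases before to 50 bases after an annotated start, were at hand for 25 members (36 windows). The windows of the 4 genes that rose in both genotypes and had one, followed by the windows of a gene that fell, are given 5′ to 3′ on the strand of the gene, and capitals mark the cyclic AMP response element half-site (TGACG, or CGTCA where it lies on the other strand).
Kcne4, chr1:78816661-78816960, plus strand: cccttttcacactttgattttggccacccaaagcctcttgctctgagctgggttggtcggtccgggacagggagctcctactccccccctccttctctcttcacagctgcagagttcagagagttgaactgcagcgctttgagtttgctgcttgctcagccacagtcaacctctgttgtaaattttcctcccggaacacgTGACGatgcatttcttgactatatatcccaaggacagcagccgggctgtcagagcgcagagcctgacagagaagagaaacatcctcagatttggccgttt
Kcnh6, chr11:106007898-106008197, plus strand: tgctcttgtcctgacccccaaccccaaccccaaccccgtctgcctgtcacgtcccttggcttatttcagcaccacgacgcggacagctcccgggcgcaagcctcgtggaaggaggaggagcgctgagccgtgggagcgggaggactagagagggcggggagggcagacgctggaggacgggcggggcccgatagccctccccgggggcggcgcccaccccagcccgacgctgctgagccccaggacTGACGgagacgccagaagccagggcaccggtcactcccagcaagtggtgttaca
Kcnh1, chr1:192190527-192190826, plus strand: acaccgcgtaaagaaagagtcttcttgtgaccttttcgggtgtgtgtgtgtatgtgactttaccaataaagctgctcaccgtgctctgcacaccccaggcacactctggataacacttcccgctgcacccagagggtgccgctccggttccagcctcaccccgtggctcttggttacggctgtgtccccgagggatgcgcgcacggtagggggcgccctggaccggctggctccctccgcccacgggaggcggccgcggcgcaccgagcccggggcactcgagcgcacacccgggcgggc
Kcnq1ot1, chr7:143296498-143296797, minus strand: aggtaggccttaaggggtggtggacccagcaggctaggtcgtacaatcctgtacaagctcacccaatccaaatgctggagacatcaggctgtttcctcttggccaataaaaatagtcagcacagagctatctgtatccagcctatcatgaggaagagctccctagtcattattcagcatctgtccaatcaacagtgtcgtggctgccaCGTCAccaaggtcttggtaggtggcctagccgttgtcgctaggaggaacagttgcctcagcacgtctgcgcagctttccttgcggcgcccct
Kcns3, chr12:11150793-11151092, minus strand: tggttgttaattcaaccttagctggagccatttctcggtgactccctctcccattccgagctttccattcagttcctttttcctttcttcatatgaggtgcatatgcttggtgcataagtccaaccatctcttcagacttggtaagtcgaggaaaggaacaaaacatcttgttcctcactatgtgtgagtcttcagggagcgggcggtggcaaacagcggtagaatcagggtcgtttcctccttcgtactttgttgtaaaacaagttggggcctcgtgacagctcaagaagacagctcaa
Kcns3, chr12:11150324-11150623, minus strand: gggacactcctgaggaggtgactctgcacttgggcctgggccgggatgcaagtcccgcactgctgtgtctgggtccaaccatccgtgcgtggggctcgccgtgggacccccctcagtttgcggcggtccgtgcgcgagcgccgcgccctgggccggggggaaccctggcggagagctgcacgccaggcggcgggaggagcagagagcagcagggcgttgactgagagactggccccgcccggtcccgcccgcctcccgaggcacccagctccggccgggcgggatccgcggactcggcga

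The half-site began at -50 from the RefSeq start in Kcne4, at -4 in Kcnh6 and at -42 in Kcnq1ot1. These letters were in neither orientation in the windows of Kcnh1 and Kcns3. In GENCODE M21 the genes Kcne4 and Kcnh6 start further upstream (chr1:78816758 and chr11:106008124), so there both half-sites lie inside the annotated gene. Over all members, 8 of 36 windows held the half-site (22.2%), beside 20.8% of all 32851 promoter windows and 30.0% of the windows of genes in the expression table. The full palindromic element, TGACGTCA, was in 0 of the 36 windows of members, in 1.79% of all windows and in 2.96% of the windows of genes in the expression table. At shares this low, finding none in 36 windows, some of which overlap, carries little information. Among the 10 windows of members called by cold in both genotypes, 3 held the half-site. A match is only a string of letters in the window. The Kcnh6 window was rich in G and C (69.3%, beside a median of 52.7% over all windows).

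The first question was which potassium channel transcripts BAT of control mice held at RT. Because levels were compared between genes, they are given here as normalized counts per kb of exon (GENCODE M21 exons merged over isoforms). Kcnk3, which encodes an acid-sensitive leak channel, stood far above the other members at 1118 ± 77.7 per kb (SD, n = 6), ranging from 988 to 1197. It made up 75.5% of the summed per-kb level of all members, and 97.5% of the 13761 genes with an annotated length lay below it. Kcnj8, the pore of the ATP-sensitive channel of vascular smooth muscle and pericytes, came next at 165 ± 16.5 per kb. The Kcnk3 level was 6.76 times that of Kcnj8, and no mouse overlapped between them.

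Kcns3, a voltage-gated subunit that is silent alone and modifies its partners, followed at 49.1 ± 10.3 per kb. Kcna5, a delayed rectifier, had 36.1 ± 17.1 per kb, and the ranges of these 2 genes overlapped (33.6 to 61.5 and 13.5 to 63.0). Kcnj8 was 3.37 times above Kcns3 without overlap. Below them lay Kcnn1, a small-conductance calcium-activated subunit (16.4 ± 7.90 per kb), Kcna1, a low-threshold delayed rectifier (12.1 ± 3.64), and Kcnq1ot1 (10.5 ± 1.59). From Kcns3 to the last place, every gene overlapped its neighbour in the order over the 6 mice, so adjacent places there are not resolved. Genes further apart can be: the lowest Kcns3 value (33.6) lay above the highest of Kcnn1 (28.9). The members of lower rank lay below Kcnq1ot1 in mean, and Kcnh6, a gene of the ether-a-go-go-related family, was last at 0.128 ± 0.142 per kb.

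The leading 2 places did not depend on how length was taken: per kb of coding sequence, Kcnk3 and Kcnj8 were again at ranks 1 and 2. Of the leading 8 genes, 7 were also among the leading 8 by coding length, where Kcnq1ot1 has none, and 7 when all 23 mice were averaged. Averaged over all mice, Kcne4 moved from rank 18 to rank 6 and Kcnh6 from rank 33 to rank 18.

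**Figure D1:**
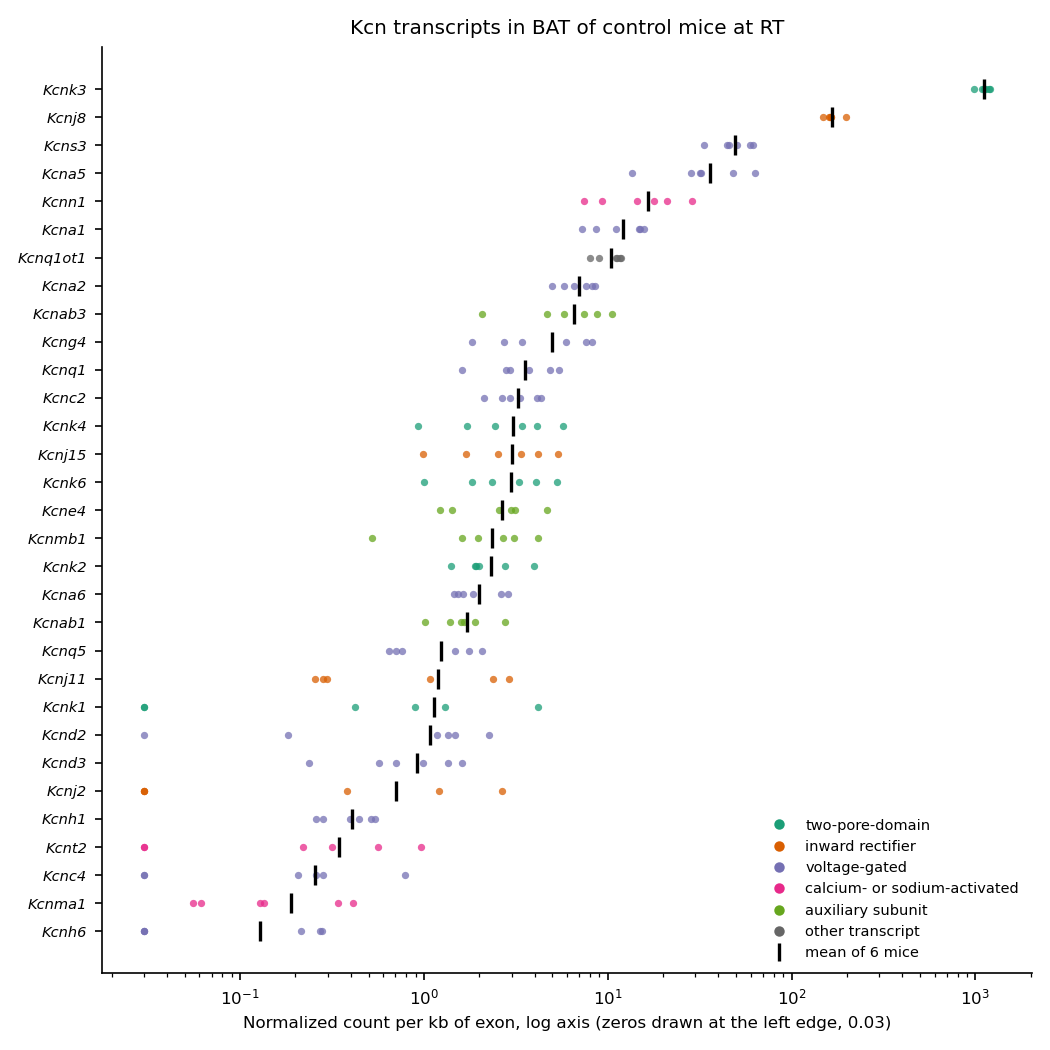
Level of 31 of the 33 Kcn transcripts in BAT of 6 control mice at RT, as normalized count per kb of exon on a log axis. Each dot is 1 mouse, the black bar is the mean, and colours give the channel class. Kcnk3 (mean 1118) and Kcnj8 (mean 165) stand apart from the rest, and from Kcns3 downward each gene overlaps the next.

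The second comparison asked which members changed after 6 h at 4°C. In Ctrl mice, 12 of the 33 members were called at an adjusted p under 0.05, 8 higher and 4 lower, while 46.0% of all genes tested were called (22.3% higher and 23.7% lower). In the knockouts, 13 members were called, 5 higher and 8 lower, beside 43.3% of all genes (21.4% higher and 21.9% lower). The share of members called was not above that of all genes in either genotype. The median log2 fold change of the members was 0.19 in Ctrl and -0.34 in the knockouts, and that of all genes -0.02 in both. Among the 21 members with a mean under 20, 6 and 7 were called, beside 23.8% and 22.7% of all genes of that level. At an unadjusted p under 0.05 there were 16 and 14 members, beside 52.4% and 49.9% of all genes. RT and cold mice did not overlap for 6 members in Ctrl and 8 in the knockouts, beside 25.2% and 24.2% of all genes, and 9 and 11 members were called with a change of at least 2-fold, beside 17.0% and 14.8%.

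The same 9 members were called in the same direction in both genotypes, beside 34.8% of all genes. Of these, 5 rose, namely Kcnk3, Kcne4, Kcnh6, Kcnh1 and Kcnq1ot1, and 4 fell, among them Kcnc2, Kcns3 and Kcnab3. The 2 cold comparisons share no mice.

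Kcnk3, already the leading member at RT, rose further. Its normalized count ran from 3928 to 4758 in Ctrl mice at RT (median 4474), and in the 5 Ctrl mice at 4°C it was 10931, 9738, 13411, 13325 and 11528. In the knockouts it ran from 3833 to 5084 at RT (median 4881) and between 9258 and 12443 at 4°C (median 11096). The groups did not overlap in either genotype. The log2 fold change was 1.40 ± 0.10 (SE) in Ctrl mice (mean 4444 ± 309 to 11787 ± 1581, limma adjusted p = 1.74e-11) and 1.23 ± 0.09 in the knockouts (4723 ± 449 to 11065 ± 1265, limma adjusted p = 6.83e-11). Kcnk3 (chr5:30588170-30625271, plus strand) shares 229 exonic bases with the antisense gene Gm9899, from which unstranded reads cannot be told apart.

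Kcne4 encodes a single-pass auxiliary subunit that lowers the current of several voltage-gated channels. It ran from 3.26 to 12.4 in Ctrl mice at RT (median 7.37), and at 4°C the 5 Ctrl mice held 267, 16.7, 43.6, 56.6 and 56.9. In the knockouts it ran from 2.59 to 17.8 at RT (median 5.70) and between 24.0 and 137 at 4°C (median 47.4). Every cold mouse lay above every RT mouse of its genotype. The Ctrl mouse at 267 came from the library with the fewest reads, 7129271. The log2 changes were 2.97 ± 0.53 in Ctrl mice (limma adjusted p = 5.63e-05) and 2.95 ± 0.51 in the knockouts (limma adjusted p = 3.79e-05), and without that mouse the Ctrl value was 2.42. The authors kept genes that reached 8 reads in 6 or more samples, and fewer than 6 RT mice reached 8 Kcne4 reads. Kcne4 thus passed this filter only with its cold mice. Its calls and the separation of its groups are therefore no independent support for a rise.

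Kcnh6 was close to absent at RT and present in every mouse at 4°C. In Ctrl mice at RT, 3 of the 6 mice held no read and the others 0.760, 0.970 and 0.993 normalized counts, while the 5 mice at 4°C held 20.2, 19.7, 22.4, 11.0 and 18.4. In the knockouts at RT, 5 of 6 held no read and 1 held 1.21, and at 4°C the values ran from 11.2 to 23.7 (median 13.6). Summed over mice, 3 reads at RT stood against 79 at 4°C in Ctrl mice, a ratio of 36.3 after scaling, with a 95% counting interval of 12.0 to 180. In the knockouts 1 read stood against 108, a ratio of 98.4 with an interval of 17.3 to 3921. These intervals are exact binomial ones and cover counting error only. The authors kept genes that reached 8 reads in 6 or more samples, and no RT mouse held more than 1 Kcnh6 read. Kcnh6 thus passed this filter only through its cold mice, so its calls and intervals are no independent support for a rise. On the log2(normalized count + 1) scale, which understates the change of low genes, the changes were 3.77 ± 0.38 and 3.83 ± 0.37 (limma adjusted p = 1.41e-08 and 5.24e-09).

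Kcnh1, an ether-a-go-go voltage-gated subunit better known from brain, was also low. It ran from 1.89 to 3.97 in Ctrl mice at RT (median 3.09) and was 18.2, 4.55, 13.7, 15.4 and 12.8 in the Ctrl mice at 4°C. In the knockouts, 3 of 6 held no read at RT and the highest held 2.82, while at 4°C the values ran from 4.79 to 14.6 (median 12.4). The groups did not overlap in either genotype. The log2 fold change was 1.72 ± 0.43 in Ctrl (limma adjusted p = 0.00197) and 2.82 ± 0.41 in the knockouts (limma adjusted p = 4.31e-06), on 19 against 60 and 5 against 75 reads. Kcnh1 also passed the filter on reads only through cold mice, as no RT mouse held more than 5 of its reads. The limit given for Kcnh6 holds here too.

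Kcnq1ot1 rose by less. It ran from 747 to 1105 in Ctrl mice at RT (median 1038) and was 1399.8, 1483, 1289, 1492 and 1327 in the Ctrl mice at 4°C. In the knockouts it ran from 778 to 1183 at RT and between 1168 and 1471 at 4°C, so that 1 RT mouse reached into the cold range. The log2 changes were 0.53 ± 0.11 and 0.48 ± 0.11 (limma adjusted p = 0.000314 and 0.000688). The 93092 bp exon of Kcnq1ot1 (chr7:143203458-143296549, minus strand) spans introns of Kcnq1, so reads from unspliced Kcnq1 RNA and from Kcnq1ot1 cannot be told apart. Kcnq1 itself had a log2 fold change of -0.35 ± 0.45 in Ctrl and -0.51 ± 0.42 in the knockouts, and was called in neither.

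**Figure D2:**
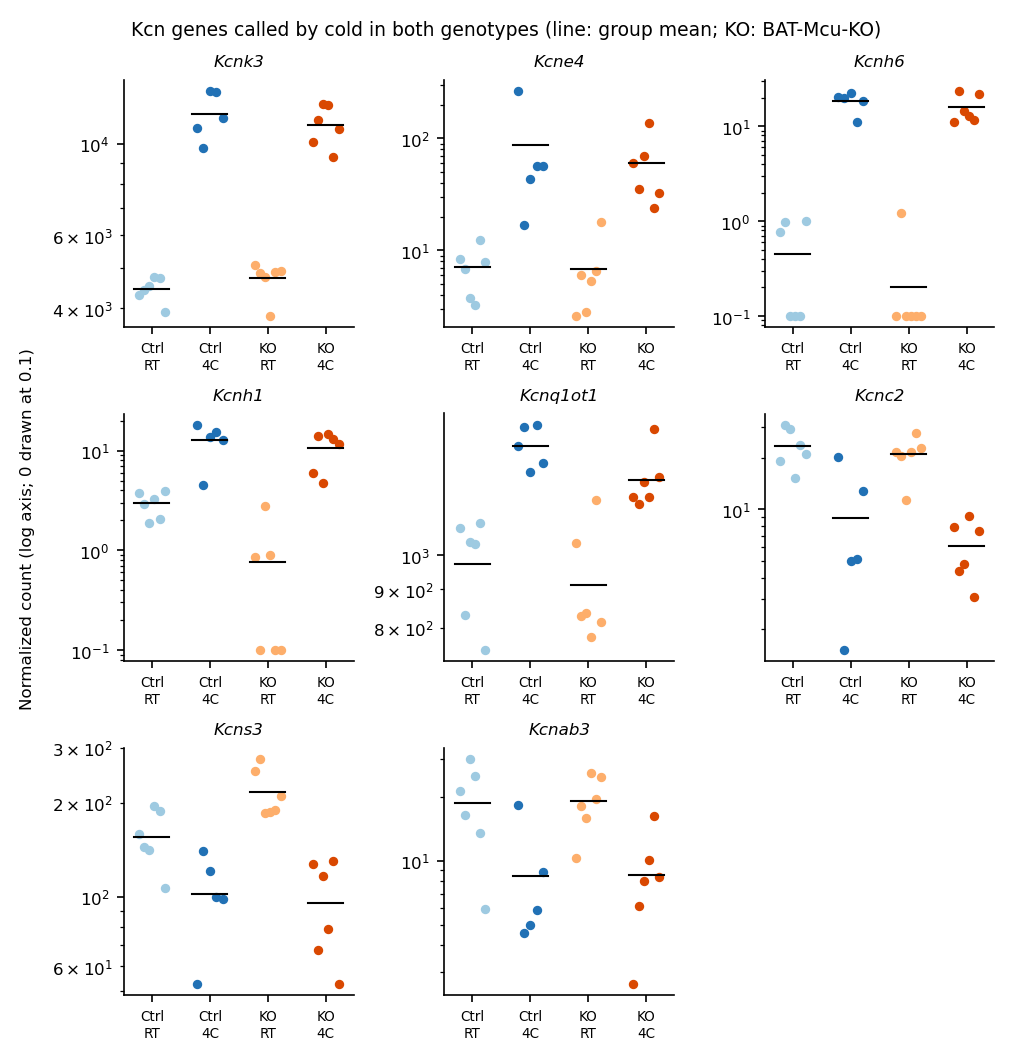
Normalized count of 8 of the 9 Kcn genes called by cold in both genotypes, on a log axis that differs between panels, with 1 dot per mouse and a line at each group mean. Of the genes drawn, 5 rose and 3 fell. Kcnk3, Kcne4, Kcnh6 and Kcnh1 show no overlap between RT and 4°C in either genotype, whereas Kcnab3 overlaps in both.

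Among the genes that fell, Kcnc2, a fast-activating delayed rectifier known from fast-spiking neurons, ran from 15.2 to 31.0 in Ctrl mice at RT and was 20.2, 1.52, 4.98, 5.14 and 12.8 at 4°C. In the knockouts it ran from 11.3 to 27.9 at RT and between 3.10 and 9.15 at 4°C. It overlapped between temperatures in Ctrl mice and not in the knockouts. The log2 changes were -1.61 ± 0.40 and -1.64 ± 0.38 (limma adjusted p = 0.00182 and 0.00106).

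Kcns3 fell from a mean of 155 ± 32.7 to 102 ± 32.5 in Ctrl mice, whose values at 4°C were 52.6, 139.6, 121, 99.9 and 98.6. It fell from 217 ± 38.6 to 95.5 ± 33.4 in the knockouts, from 185 to 276 at RT to 52.6 to 130.2 at 4°C. The groups overlapped in Ctrl mice only. The log2 changes were -0.64 ± 0.24 (limma adjusted p = 0.0281) and -1.24 ± 0.22 (limma adjusted p = 7.28e-05), and the difference between them, -0.60 ± 0.33, was not called (limma adjusted p = 0.85). The call in Ctrl mice was lost without the cold mouse at 52.6 (-0.42, adjusted p = 0.124) and without either of 2 RT mice (-0.57 and -0.58).

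Kcnab3, a cytoplasmic beta subunit of voltage-gated channels, overlapped between temperatures in both genotypes, with means of 18.7 ± 8.64 and 8.49 ± 5.68 in Ctrl and 19.1 ± 5.76 and 8.57 ± 4.54 in the knockouts. Its log2 changes were -1.08 ± 0.41 (limma adjusted p = 0.0338) and -1.16 ± 0.39 (limma adjusted p = 0.0178). It shares 147 exonic bases with the antisense gene Kcnab3os.

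The call on Kcnab3 in Ctrl mice was lost in 6 of the fits that left out 1 Ctrl mouse, and in the knockouts it was lost without 1 cold mouse (-0.91, adjusted p = 0.0566).

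A further 7 members were called in 1 genotype. In Ctrl mice and not in the knockouts, Kcna5 (0.94 ± 0.26), the leak channel gene Kcnk6 (1.05 ± 0.38) and the sodium-activated channel gene Kcnt2 (1.63 ± 0.67) rose. In the knockouts and not in Ctrl mice, 4 members fell, among them Kcnk2, a mechanically gated leak channel (-1.67 ± 0.39), Kcnq5, a slow voltage-gated subunit (-1.95 ± 0.58), and Kcnma1, the large-conductance calcium-activated channel (-1.55 ± 0.58). In the other genotype the values were 0.43 ± 0.25, 0.50 ± 0.36, 0.61 ± 0.64, -0.92 ± 0.41, -0.42 ± 0.61 and 0.89 ± 0.61 in the same order. No member was called in the interaction, so a difference between genotypes was not shown for any of them. Which genotype a call fell in depended on the fit for Kcna5, which was also called in the knockouts when only the groups compared were fitted (0.43, limma adjusted p = 0.0364), and for Kcnk2. Kcnk2 was also called in Ctrl mice with 75th percentile scaling (-1.03, limma adjusted p = 0.0419) and without BAT-Mcu-KO 4C mouse 6 (-0.92, limma adjusted p = 0.0397). Kcnt2 was at the threshold (limma adjusted p = 0.0483), and most fits that left out 1 mouse lost its call. That of Kcnma1 was lost without any 1 of BAT-Mcu-KO RT mice 3, 4 and 6 or BAT-Mcu-KO 4C mouse 3 (-1.20 to -1.38). The call on Kcnk6 in Ctrl mice was also lost in 5 of the fits that left out 1 Ctrl mouse (adjusted p from 0.052 to 0.0851). Fewer than 6 RT mice reached 8 Kcnt2 reads, so Kcnt2 passed the filter on reads only with its cold mice. Kcnma1 held at most 7 reads in Ctrl RT mice and 5 in BAT-Mcu-KO 4C mice. It thus passed only through BAT-Mcu-KO RT and Ctrl 4C mice, the groups where it was high. For Kcnt2 and Kcnma1 these calls are no independent support for a change.

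Kcna5 is the best measured of these. It ran from 38.7 to 180.2 in Ctrl mice at RT (median 91.4) and was 154, 123, 213, 249.8 and 189 at 4°C, where it overlapped the RT range. In the knockouts it ran from 97.7 to 195 at RT and between 146 and 208 at 4°C. Kcna5 lies at chr6:126532551-126535412 beside Kcna1 (chr6:126640397-126646384) and Kcna6 (chr6:126708329-126740674), all on the minus strand. Kcna6 shares 2355 exonic bases with the antisense gene Gm26673. The 2 neighbours were not called, with log2 fold changes of 0.30 ± 0.35 and -0.92 ± 0.55 in Ctrl and -0.41 ± 0.33 and -0.52 ± 0.53 in the knockouts.

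The remaining 17 members were called by cold in neither genotype. Among them Kcnj8 was measured most precisely. It ran from 376 to 502 in Ctrl mice at RT and was 419, 393, 388, 444 and 418 at 4°C, and in the knockouts it ran from 309 to 455 at RT and between 401 and 512 at 4°C. The ranges overlapped throughout. The log2 fold change was -0.03 in Ctrl mice, with a 95% interval of -0.24 to 0.19, and 0.19 in the knockouts, with an interval of -0.02 to 0.39. Kcnn1 overlapped as well, at 75.4 ± 36.2 and 104 ± 20.7 in Ctrl and 109.8 ± 30.7 and 101 ± 41.9 in the knockouts. Kcna1 was at 57.9 ± 17.4 and 71.6 ± 26.4 in Ctrl and at 63.3 ± 28.1 and 47.9 ± 24.8 in the knockouts. For the lower members the intervals were wide: that of Kcnk1, a weakly conducting leak channel, ran from -0.11 to 2.94 in Ctrl mice.

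**Figure D3:**
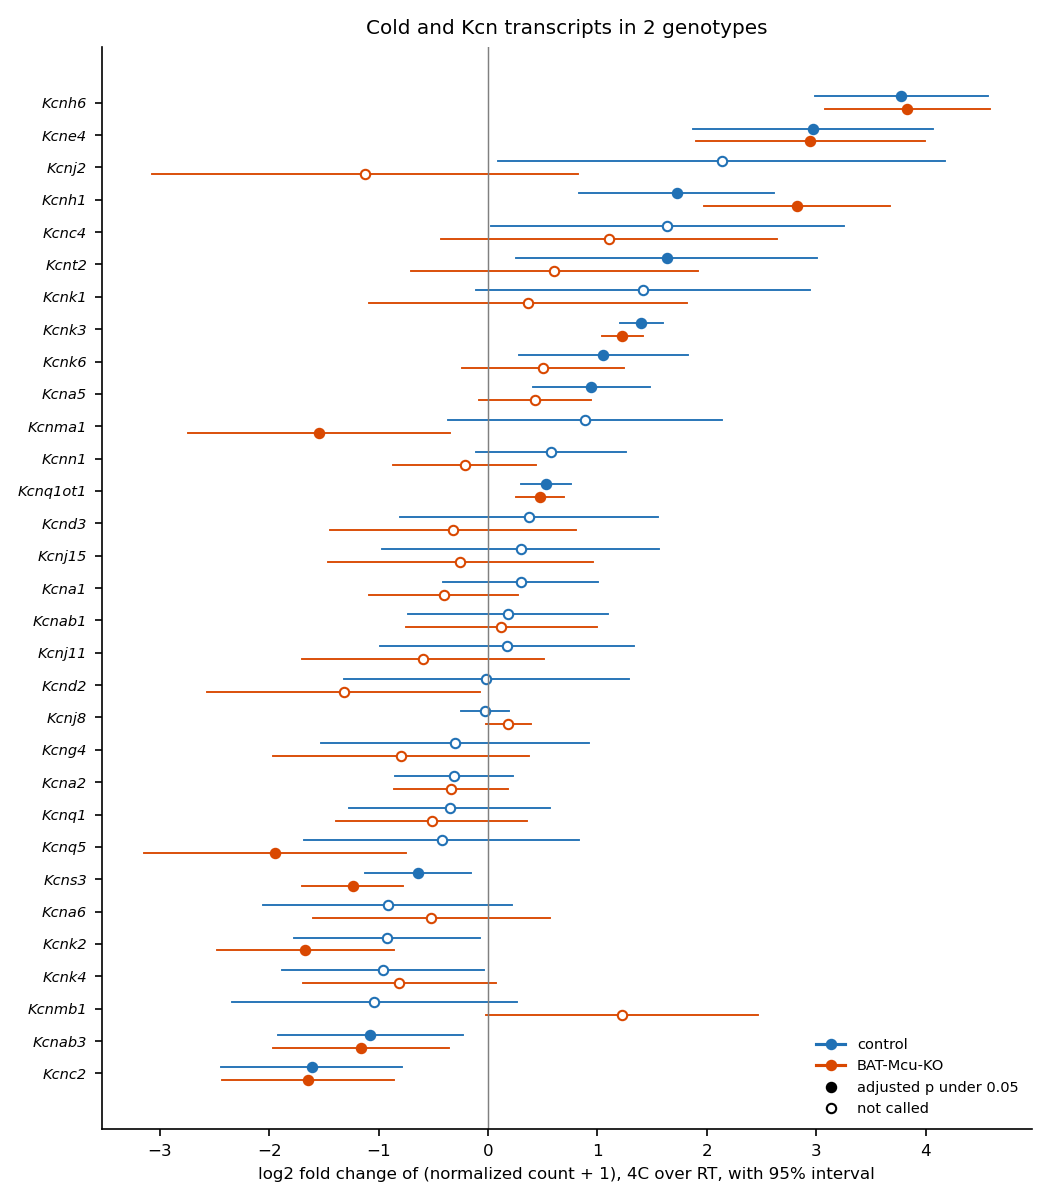
Log2 fold change of (normalized count + 1), 4C over RT, for 31 of the 33 Kcn genes in control (blue) and BAT-Mcu-KO mice (orange), with 95% intervals from limma. Filled dots mark an adjusted p under 0.05. Kcnh6, Kcne4 and Kcnh1 lie to the right in both genotypes, Kcnc2 and Kcnab3 to the left, and the widest intervals belong to members with few reads, such as Kcnj2.

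By class, the voltage-gated subunits had 3 called higher and 3 called lower of 16 in Ctrl mice and 2 higher and 5 lower in the knockouts, near the shares over all genes (22.3% and 23.7%, and 21.4% and 21.9%). Of the 5 two-pore-domain genes, 2 were called higher in Ctrl mice and 1 higher and 1 lower in the knockouts. None of the 4 inward rectifiers (Kcnj2, Kcnj8, Kcnj11 and Kcnj15) was called in either genotype by limma, and 1 of them had an unadjusted p under 0.05 in Ctrl and 0 in the knockouts. Of the 4 auxiliary subunits, Kcne4 was called higher and Kcnab3 lower in both, while Kcnab1 and Kcnmb1 were not called.

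Summed levels of cell type markers also differed between RT and cold mice, and their part in these results was not tested. Calls on single markers stand beside the 46.0% and 43.3% of all genes called in Ctrl mice and in the knockouts. Of the 8 brown adipocyte markers, 3 were called higher and 4 lower in Ctrl mice (median log2 fold change -0.28), and 2 and 2 in the knockouts. The summed level of 6 endothelial markers ran from 3243 to 4753 in Ctrl mice at RT and from 5158 to 7991 at 4°C (3454 to 4629 and 4792 to 6641 in the knockouts), with 2 markers called higher and 2 lower. That of 8 Schwann cell and nerve markers ran from 1761 to 3217 and from 3659 to 4527 (2108 to 2699 and 3441 to 4659 in the knockouts), with 1 called higher and 1 lower. That of 8 smooth muscle and pericyte markers ran from 6838 to 9079 and from 5243 to 7941 (6611 to 8704 and 5389 to 7285 in the knockouts), with 1 called higher and 4 lower. Macrophage markers had 2 of 7 called higher in Ctrl and 5 of 7 in the knockouts, and fibroblast markers 0 and 1 of 5. The calls given with the summed levels are those in Ctrl mice. A sum can rise while most of its markers do not. The 8 Schwann cell and nerve markers had a median log2 fold change of 0.15 in Ctrl and -0.25 in the knockouts. Of them, 4 had a positive change in Ctrl mice and 1 in the knockouts, where 1 was called higher and 2 lower. The endothelial medians were 0.18 in Ctrl and 0.03 in the knockouts. Of 6 lymphocyte markers, 2 were in the table, and no measured marker of any list was at 0 in all mice. In bulk tissue, fewer cells of a type and less RNA per cell cannot be told apart.

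The third comparison asked whether loss of Mcu changed the members. No member was called between BAT-Mcu-KO and Ctrl mice by limma at RT, where 0.0478% of all genes were called (0.0205% higher and 0.0273% lower, each past 2-fold), or at 4°C, where 0.0751% were (0.0410% higher and 0.0341% lower, 0.0546% past 2-fold). The genotypes overlapped for every member at both temperatures, while 0.218% and 0.683% of all genes did not overlap. At an unadjusted p under 0.05 there were 5 members at RT (5.15% of all genes) and 0 at 4°C (6.98%). DESeq2 and edgeR on the recovered whole reads also called 0 members in each. Kcnk3 differed by 0.08 between genotypes at RT, with a 95% interval of -0.10 to 0.27, and by -0.09 at 4°C, with an interval of -0.29 to 0.11.

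The member with the smallest p at RT was Kcnh1, at 0.763 ± 1.10 in BAT-Mcu-KO and 2.98 ± 0.867 in Ctrl mice, on 5 and 19 reads (log2 fold change -1.34 ± 0.41, limma unadjusted p = 0.00332, adjusted p = 0.883). The next was Kcnma1, at 10.7 ± 6.72 and 3.20 ± 2.55 (1.42 ± 0.58, limma unadjusted p = 0.022, adjusted p = 0.94). The limit from the filter on reads, given above for Kcnma1, holds for this value too. At 4°C the smallest p belonged to Kcna1 (-0.66 ± 0.35, limma adjusted p = 0.735). The ranges of the 2 genotypes overlapped for each of these genes.

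The interaction, which asks whether the cold response differed between genotypes, gave 0 members called by limma and 0% of all genes. At an unadjusted p under 0.05 there were 3 members, beside 5.99% of all genes, namely Kcnma1, its smooth muscle auxiliary subunit Kcnmb1, and the inward rectifier Kcnj2. Their values were -2.43 ± 0.84, 2.27 ± 0.87 and -3.26 ± 1.37 (limma adjusted p = 0.78, 0.78 and 0.801). As Kcnma1 passed the filter on reads only through the groups where it was high, its value here is no independent support for a difference. By DESeq2 there were 4 members at that level and by edgeR 5, and neither called a member. Kcnmb1 ran from 2.18 to 17.5 in Ctrl mice at RT, was 8.09, 3.04, 0, 8.82 and 4.81 in Ctrl mice at 4°C, and ran from 0 to 9.65 at RT and between 3.20 and 15.5 at 4°C in the knockouts. All 4 groups overlapped.

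Kcnma1 and Kcnj2 were highest in libraries rich in skeletal muscle transcripts, whose part in their values was not tested. The summed level of 8 skeletal muscle markers, all in the table, ran from 6.22 to 44614 normalized counts over the 23 mice. The 5 highest libraries were BAT-Mcu-KO RT mice 3, 4 and 6 and Ctrl 4C mice 2 and 5, at 27406 to 44614, and the other 18 lay at 10591 or lower. Kcnma1 was 13.6 to 17.8 in those 5 mice and 0 to 7.35 in the other 18, without overlap. Kcnj2, the classical inward rectifier of muscle, was 7.17 to 47.0 in the 5 and 0 to 19.3 in the others. Tmem38a, a potassium channel of the sarcoplasmic reticulum, was 454 to 705 and 34.4 to 176. Kcnj11, the pore of the muscle and islet ATP-sensitive channel, was 3.21 to 12.8 and 0 to 10.6, and overlapped.

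Because the 5 mice hold every high value of Kcnma1 and lie in 2 groups only, leaving them out had to shrink its contrasts. Without them, the cold value of Kcnma1 in the knockouts was -0.68 ± 0.67 (limma adjusted p = 0.478) and its interaction -0.76 ± 0.94 (limma unadjusted p = 0.426). The interaction of Kcnj2 was then -0.69 ± 1.46. The cold values of Kcnk3 were 1.49 ± 0.11 and 1.15 ± 0.11 in Ctrl and BAT-Mcu-KO mice without these 5, those of Kcne4 3.56 and 3.16, and those of Kcnh6 3.72 and 3.64, and each was still called. For Kcne4 and Kcnh6 a retained call is no independent support, as both passed the filter on reads only with their cold mice. Kcnab3, at -0.95 and -0.93 (-1.08 and -1.16 with all mice), was no longer called in either genotype. Nor were Kcnq1ot1 (0.32, limma adjusted p = 0.0677) and Kcnq5 (-1.52, limma adjusted p = 0.125) in the knockouts. This fit lacks mice 3, 4 and 6 of 6 BAT-Mcu-KO RT mice and mice 2 and 5 of 5 Ctrl 4C mice. For a lost call, smaller groups and muscle content cannot be told apart. The counts of members called were 10 and 10, and the Kcnk3 interaction, at -0.34 ± 0.15, had a limma unadjusted p of 0.0326 and an adjusted p of 0.906.

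**Figure D4:**
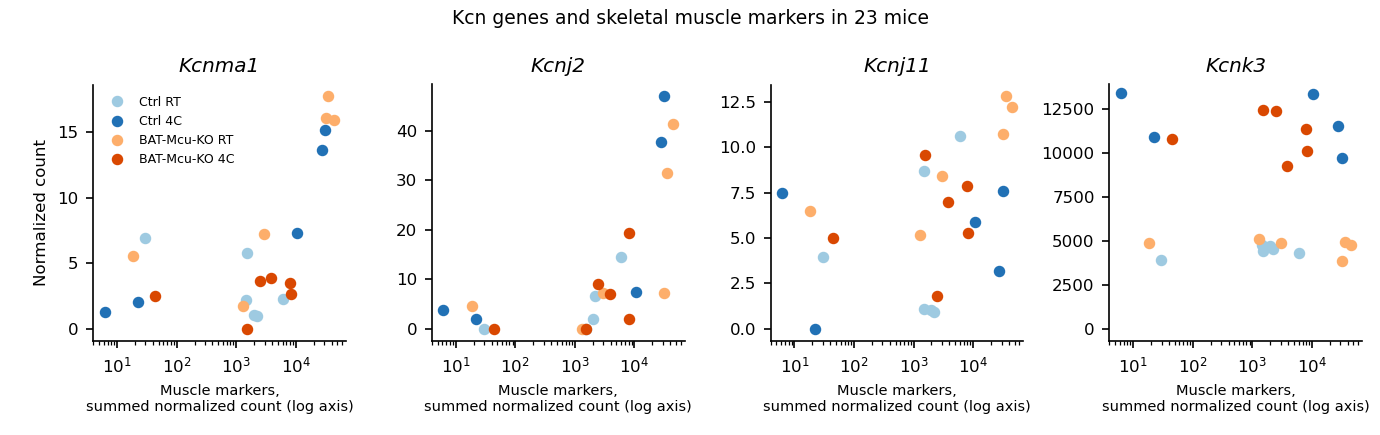
Normalized count of 4 Kcn genes against the summed normalized count of 8 skeletal muscle markers (log axis), with 1 dot per mouse and colours for the 4 groups. In the 5 mice at the right Kcnma1 lies at 13.6 to 17.8, above the other 18 mice. Kcnj2 is high in 4 of the 5, Kcnj11 overlaps, and Kcnk3 separates by temperature at every muscle level.

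The genes that work beside the Kcn channels were examined as a list of 35 potassium transport genes, of which 26 were in the table. In Ctrl mice 6 were called higher and 6 lower by cold, and in the knockouts 6 and 5, close to the shares of all genes called (46.0% and 43.3%). Of these genes, 11 were called in the same direction in both genotypes, 6 higher and 5 lower, beside 17.3% and 17.5% of all genes. The median log2 fold change of the list was -0.11 in Ctrl and -0.19 in the knockouts.

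Lrrc52, a leucine-rich repeat auxiliary subunit of the large-conductance channels of the Kcnma1 family, had the largest change of the list. It ran from 0 to 8.36 in Ctrl mice at RT (median 4.01) and was 267, 226, 358, 307 and 672 at 4°C. In the knockouts it ran from 0 to 6.91 at RT and between 193 and 333 at 4°C. The log2 changes were 6.43 ± 0.46 and 6.00 ± 0.44 (limma adjusted p = 3.80e-11 and 4.93e-11), on 25 against 1825 and 22 against 1697 reads. The scaled read ratios were 101, with a 95% counting interval of 68.0 to 156, and 70.3, with an interval of 46.2 to 112. At RT the mice held at most 11 and 7 Lrrc52 reads. It too could not pass the filter of 8 reads in 6 samples without its cold mice. Kcnma1 itself was at 7.88 ± 6.42 in the same cold Ctrl mice and at 2.70 ± 1.43 in the cold BAT-Mcu-KO mice. Whether Lrrc52 joins it in BAT was not tested. Lrrc52 lies at chr1:167445669-167466780 on the minus strand.

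The sodium-potassium pump, which rebuilds the gradient the channels run down, changed by subunit. Its beta subunit Atp1b1 ran from 72.7 to 126 in Ctrl mice at RT and was 459, 543, 498, 500.3 and 686 at 4°C, with log2 fold changes of 2.49 ± 0.19 in Ctrl and 2.13 ± 0.18 in the knockouts. None of these cold mice overlapped the RT mice of their genotype. The other beta subunits fell: Atp1b2 by 0.48 and 0.71 and Atp1b3 by 0.38 and 0.35 on the log2 scale. The call on Atp1b2 in Ctrl mice was lost in 8 of the fits that left out 1 Ctrl mouse.

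The cation-chloride cotransporter that brings potassium in with sodium and chloride, Slc12a2, rose from 520.1 ± 121 to 1637 ± 344 in Ctrl and from 589 ± 265 to 1699 ± 119 in the knockouts (1.65 ± 0.20 and 1.62 ± 0.19). Slc12a4, which carries potassium out with chloride, rose by 0.96 and 0.79. Slc12a9, an orphan member of the family, fell by 1.22 and 0.62. The pump regulators moved apart, with Fxyd5 at 1.39 and 1.51 and Fxyd1 at -0.45 and -0.35, all called. Tmem175, a lysosomal potassium channel, fell by 1.02 and 0.62.

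The partners of Kcnj8 were not called. Abcc9, its sulfonylurea receptor, whose gene (chr6:142587862-142702315) lies next to Kcnj8 (chr6:142564837-142571614), was at 504 ± 88.1 and 540.5 ± 66.5 in Ctrl mice and at 505 ± 81.5 and 574 ± 79.5 in the knockouts. Its log2 changes were 0.11 ± 0.13 and 0.19 ± 0.12. Abcc8, the receptor of the islet channel, was at 12.8 ± 6.55 and 14.9 ± 9.19 in Ctrl mice.

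**Figure D5:**
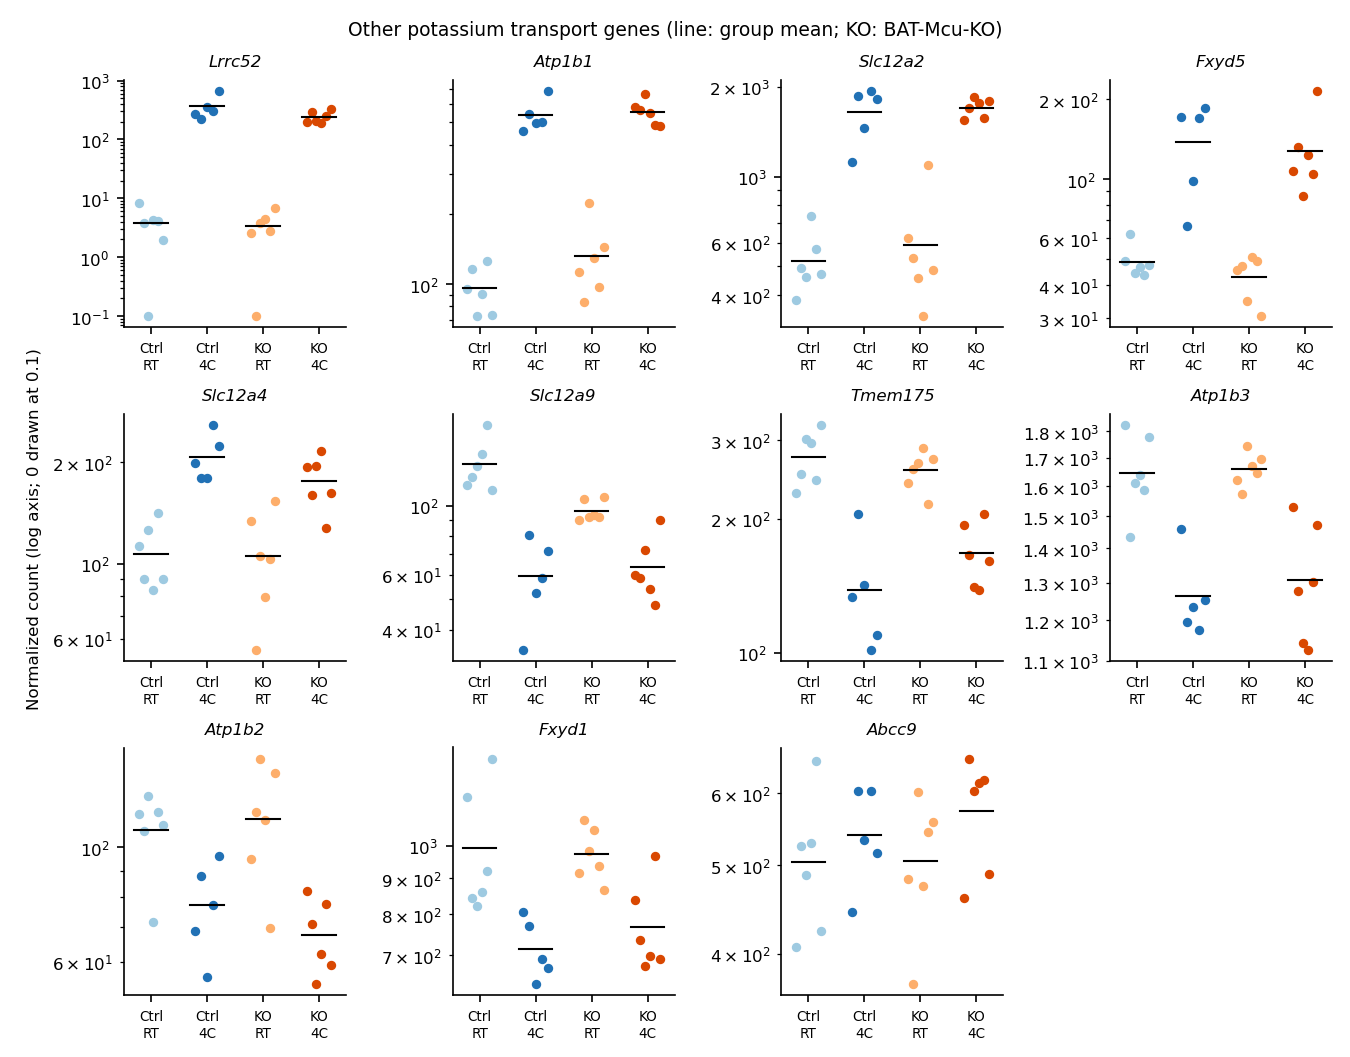
Normalized count of 11 other potassium transport genes, on a log axis that differs between panels, with 1 dot per mouse and a line at each group mean. The first 5 rose with cold in both genotypes, the next 5 fell in both, and Abcc9, the partner of Kcnj8, was not called. Lrrc52 runs from at most 8.36 at RT to at least 193 at 4°C.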

How the data were processed

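Expression was measured in BAT of 23 mice. Per the methods, the authors made Smart-seq2 libraries, which do not mark strand, aligned reads to mm10 with STAR 2.4.0j, counted unique exonic reads with HTSeq irrespective of strand, kept genes that reached 8 reads in 6 or more samples, and divided the counts by DESeq2 size factors. The deposited values are thus a signal, normalized counts. They were whole multiples of 1 read in 100% of cases (tolerance 0.01 reads), so whole reads could be recovered. A deposited table of the authors' own fold changes and p-values was not used.

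Differences were tested with limma 3.58.1 (R 4.3.3) on log2(normalized count + 1), with 4 group means, all 23 mice, a variance trend and Benjamini-Hochberg adjustment over 14651 genes. A gene was called at an adjusted p under 0.05. The limma step was tested on simulated data. Alternatives were pseudocounts of 0.5 and 10, a mean of 50 or more, 75th percentile scaling, no variance trend, only the groups compared, the replicate number as a block, DESeq2 1.42.0 and edgeR 4.0.16 on recovered reads, and leaving out each mouse. A fit without the 5 mice highest in muscle markers was chosen after seeing the data. Lengths and positions came from GENCODE M21 (GRCm38), matched by symbol for 93.9% of genes and 33 of 33 members. Depth, 7129271 to 21006347 reads, limits the 21 members under a mean of 20.

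Members with values were Kcnk3, the 8 highest members per kb in Ctrl mice at RT, the members called by cold in both genotypes (largest changes first, up to 10), and, as no member was called by genotype or in the interaction, the 2 with the smallest p in each; other members were given by count, range or class, and those described beyond this were chosen after their values were seen. Some genes that enter the fits and counts are not reported here by name. The members and lists were chosen with earlier results of these data known.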

Additional observations from a re-analysis of the deposited data

Results flagged for a closer look

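For 14 named members, each group was examined for a mouse whose log2(normalized count + 1) lay far from the others, by the gap to its nearest neighbour divided by the range of the group. Of 56 gene and group combinations, 9 passed the 95% critical value of Dixon's test, and chance alone flags about 1 in 20 groups. Kcnk3 was lowest in BAT-Mcu-KO RT mouse 4 (3833, the others 4751 to 5084, ratio 0.760), and this library was among the 5 highest in muscle markers. Kcnj8 was highest in Ctrl RT mouse 6 (502, the others 376 to 419, ratio 0.629). Kcnn1 was lowest in BAT-Mcu-KO 4C mouse 6 (30.9, the others 92.4 to 157, ratio 0.671). Kcnc2 was lowest in BAT-Mcu-KO RT mouse 3 (11.3, ratio 0.656), a library that was also high in muscle markers. Kcnq1ot1 was highest in BAT-Mcu-KO 4C mouse 5 (1471, the others 1168 to 1271, ratio 0.632).

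The other 4 rest on low counts. Kcnh6 was lowest in Ctrl 4C mouse 4 (11.0, 15 reads, ratio 0.722), and in BAT-Mcu-KO RT mouse 2 it had 1 read where the other 5 mice had 0, which gives a ratio of 1 by construction. Kcnh1 was lowest in Ctrl 4C mouse 2 (4.55, 3 reads, ratio 0.735), a muscle-rich library of 8749379 reads. Kcnma1 was 0 in BAT-Mcu-KO 4C mouse 3 (the others 2.50 to 3.87, ratio 0.791), the library with the fewest reads of its group, 8336445.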

How the results depend on the processing

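Counts of Kcn members called were 12 in Ctrl and 13 in BAT-Mcu-KO mice. Under a mean normalized count of 50 or more they were 5 and 4, with 9 members left to test. Over fits that left out 1 mouse they ran from 9 to 14 and from 12 to 14. DESeq2 and edgeR on recovered reads both gave 14 and 13. Genotype and interaction gave 0 called members in every fit. Over all genes, the interaction called 28 genes with DESeq2 and 0 with limma and edgeR, and genotype called 20 genes at RT and 23 at 4°C with DESeq2, 7 and 6 with edgeR and 7 and 11 with limma; the cause was not tested. Scaling to the 75th percentile moved the median of all genes by -0.11 in Ctrl mice and the share of higher among called genes from 48.5% to 38.1%.

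Of the alternative values for single genes, 2145 kept direction and side of the threshold, 58 lost the call, 4 gained it and 6 changed sign, all 6 for changes that were not called. The cold value of Kcnj8 in Ctrl mice, -0.03, was 0.0040 with the replicate block and ran from -0.059 to 0.024 over fits that left out 1 mouse, the highest without Ctrl RT mouse 6. That of Kcnn1 in BAT-Mcu-KO mice ran from -0.37 to 0.095, the highest without BAT-Mcu-KO 4C mouse 6. That of Kcnq5 in Ctrl mice was 0.024 with DESeq2 and 0.036 with edgeR, and ran from -0.77 to 0.29 over fits that left out 1 mouse, the highest without Ctrl 4C mouse 1, which held no read. The cause of the changes by tool was not tested.

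Same-numbered mice deviated together only weakly (mean correlations from -0.14 to 0.12 over the pairs of groups), so the numbers were not taken as pairs. With the replicate number as a block, 12 and 13 members were called by cold and 0 in the others, Kcnk2 gained its call in Ctrl mice (-1.12) and Kcnt2 lost its own. At these depths a member under 20 normalized counts rests on few reads per mouse.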
